A study of Gallus gallus with 72 samples.

Results

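Breast muscle of Cornish chickens was set against breast muscle of White Plymouth Rock chickens on day 1 after hatch (D1), with 6 sequenced libraries per breed. The libraries were chosen by breed and age, and these 12 are part of 72. The remaining libraries come from the crossbred of both breeds on that day and from all 3 breed groups before hatch, on embryonic day 17 (E17), and later, 21 and 42 days after hatch (D21, D42), again 6 per group. All birds are labelled male, and no treatment is named. The source label speaks of myofibroblasts under a cell line tag while the extraction protocol describes frozen muscle, so the libraries were read as whole tissue. The labels do not say that replicates were separate birds, so each p-value measures only the spread between these samples, part of which may be technical.

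Cornish and White Plymouth Rock are the founding breeds of most commercial meat chickens. The Cornish line usually supplies the sire and was bred for a heavy breast, while White Plymouth Rock usually supplies the dam and was kept for egg number as well as growth. The pectoral muscle is built almost wholly of fast glycolytic fibres. Fibre number is largely set before hatch, and in the days around hatching the muscle passes from growth on yolk to growth on feed, with satellite cells (the muscle's resident stem cells) adding nuclei to fibres that already exist.

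The 6 Cornish libraries held 53680958 to 75670549 estimated counts and the 6 White Plymouth Rock libraries 52506427 to 54809449. Levels are given as CPM, the count of a gene scaled to library size, after TMM scaling, which sets the libraries to a shared baseline. Fast skeletal muscle genes were abundant throughout: TNNT3, the troponin T of fast fibres, was at 3785 to 8591 CPM (median 6538) in Cornish, against 2049.8 to 6205 CPM (median 4963) in White Plymouth Rock, and the fast myosin heavy chain gene MYH1C, a member of a near-identical gene family, at 5862 to 18079 CPM (median 12778) in Cornish, against 3670.2 to 12332 CPM (median 7152) in White Plymouth Rock. Each library was correlated with the rest of its own group on log2 CPM, and the mean correlation was 0.962 to 0.968 in Cornish and 0.942 to 0.960 in White Plymouth Rock. White Plymouth Rock libraries 1 and 6 and crossbred library 1 lay below 0.95, and values without all 3 are given beside many of the results. In bulk tissue, fewer cells of a type and less RNA per cell cannot be told apart.

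No gene passed an adjusted p of 0.05 in edgeR's quasi-likelihood test of Cornish against White Plymouth Rock, of 11566 genes tested (0% called). At an unadjusted p under 0.05 there were 1002 genes (8.66%), 448 (3.87%) with a higher and 554 (4.79%) with a lower estimate in Cornish. DESeq2, run on the same 18 D1 libraries, called 78 genes (0.674%), 32 higher (0.277%) and 46 lower (0.398%). Fitting all 72 libraries together called 120 (1.01%), 43 higher (0.36%) and 77 lower (0.645%). That fit uses 1 spread per gene for all stages. As given below, the spread was wider at D1 than at E17 and D21, so the fit may understate it at D1. Of DESeq2's 78 genes 61 were among those 120, which is 78.2% of the first list and 50.8% of the second. In 72 genes (0.623% of those tested) every Cornish library lay on one side of every White Plymouth Rock library, with 34 higher (0.294%) and 38 lower (0.329%) in Cornish. The genes described below are the 12 higher and the 12 lower in Cornish with the smallest p and a mean of at least 5 CPM. Their adjusted p-values ran from 0.0676 to 0.161 in edgeR. Each of the 24 was called by DESeq2 and 19 of them by the fit of all 72 libraries, and the breeds did not overlap in 19. The 24 were chosen by small p in these same D1 libraries, so these counts describe the choice and are no separate test.

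The clearest difference was in LY6E, which encodes a membrane-anchored protein induced by interferon and known in mammals to alter virus entry. LY6E (chromosome 2, 147255592 to 147261662 in GRCg7b) was at 159.8, 130.01, 133, 154, 161 and 146 CPM in the 6 Cornish libraries and at 57.7, 64.2, 47.7, 53.3, 88.05 and 74.8 CPM in the 6 White Plymouth Rock libraries. The lowest Cornish library was above the highest White Plymouth Rock library. The log2 fold change was 1.20 ± 0.20 (SE), a 2.29-fold higher level, with an adjusted p of 0.0676. Over the alternative fits the adjusted p of LY6E ran from 3.2e-05 to 0.181; it was 0.0136 with only the 12 purebred libraries fitted and 0.12 with all 72.

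Other genes of antigen display and interferon response had estimates in both directions. BF2, a class I major histocompatibility chain of the chicken B locus that shows peptides to T cells, was at 52.2 to 80.2 CPM (median 62.6) in Cornish, against 20.3 to 43.99 CPM (median 29.96) in White Plymouth Rock, with no overlap and a log2 fold change of 1.01 ± 0.21 (adjusted p = 0.107). Its paralog BF1, 27.7 to 44.8 CPM (median 34.7) in Cornish, against 13.4 to 28.4 CPM (median 22.2) in White Plymouth Rock, had an estimate of 0.73 ± 0.19 (adjusted p = 0.199), and the 2 breeds overlapped. BF1 and BF2 are close copies, so reads may have been divided between them and each value is uncertain. CTSS, a protease that antigen-presenting cells use to prepare class II molecules, was lower, at 2.48 to 5.61 CPM (median 4.58) in Cornish, against 8.69 to 15.02 CPM (median 11.9) in White Plymouth Rock. The CTSS groups did not overlap, and the log2 fold change was -1.48 ± 0.29 (adjusted p = 0.107). NLRC5, which in mammals switches on class I genes, was at 14.9, 16.3, 19.4, 16.9, 12.1 and 13.8 CPM in Cornish and at 45.01, 33.8, 37.2, 23.1, 35.4 and 8.73 CPM in White Plymouth Rock. All 6 Cornish libraries lay under 5 of the White Plymouth Rock libraries and above library 6, giving -0.97 ± 0.29 (adjusted p = 0.309). Without White Plymouth Rock library 6 the NLRC5 difference was -1.17 and passed the threshold (adjusted p = 0.0447). Of 22 tested antigen-presentation genes, 10 had a positive and 12 a negative estimate (median -0.031, and 0.017 without the 3 libraries of low correlation). Unadjusted p was under 0.05 for 2 higher and 3 lower of these 22, where 3.87% of all genes were higher and 4.79% lower at that limit. Of 27 tested interferon-response genes, 8 were positive and 19 negative (median -0.079, and 0.0039 without the 3 libraries of low correlation). Of those 27, 2 had an unadjusted p under 0.05 on the higher side and 2 on the lower side. The higher ones were LY6E and PARP9, an ADP-ribosylation factor of interferon signalling. The lower ones, named after their values were seen, were SOCS1, a brake on cytokine signalling, at -0.68 and TRIM25, a ubiquitin ligase of antiviral signalling, at -0.25. SOCS1 was low, at 1.36 to 2.79 CPM in Cornish. In White Plymouth Rock it was at 2.07 to 3.63 CPM in libraries 1 to 5 and at 8.40 CPM in library 6. PARP9 was at 9.44 to 12.2 CPM (median 11.3) in Cornish, against 5.06 to 8.83 CPM (median 7.88) in White Plymouth Rock.

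The other higher genes came from varied pathways. RNF152, a lysosomal ubiquitin ligase that restrains mTORC1 signalling in human cells, was at 54.3 to 108 CPM (median 61.3) in Cornish, against 25.4 to 45.6 CPM (median 32.8) in White Plymouth Rock, a log2 fold change of 1.03 ± 0.18 (adjusted p = 0.093). Cornish library 1, at 108 CPM, stood well above the other Cornish libraries, but all 6 were above every White Plymouth Rock library. SESN3, a sestrin that also restrains mTORC1, was at 57.8 to 124 CPM (median 83.97) in Cornish, against 26.8 to 49.7 CPM (median 37.2) in White Plymouth Rock, without overlap (1.14 ± 0.28). The sestrin genes SESN1 and SESN2 had negative estimates instead, at -0.86 ± 0.54 and -0.048 ± 0.23. SHPK, the sedoheptulose kinase of a side branch of the pentose phosphate pathway, was at 20.4 to 49.04 CPM (median 37.1) in Cornish, against 13.7 to 24.9 CPM (median 17.97) in White Plymouth Rock and its groups overlapped (0.97 ± 0.22). The short-chain dehydrogenase gene DHRS7 was at 63.3 to 73.4 CPM (median 69.2) in Cornish, against 32.95 to 59.3 CPM (median 47.5) in White Plymouth Rock, without overlap.

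ORAOV1, named LTO1 in humans and needed there and in yeast for iron-sulphur protein assembly, was at 23.8 to 42.8 CPM (median 33.4) in Cornish, against 16.6 to 21.9 CPM (median 19.2) in White Plymouth Rock. Its groups did not overlap and its log2 fold change was 0.79 ± 0.15 (adjusted p = 0.107). CCDC112 encodes a coiled-coil protein and was at 11.8 to 19.4 CPM (median 17.5) in Cornish, against 2.73 to 11.4 CPM (median 5.67) in White Plymouth Rock, which is 1.36 ± 0.26 on the log2 scale (adjusted p = 0.107). The gene lies on the Z sex chromosome (chromosome Z, 83523516 to 83532621) and TRIM36, a ubiquitin ligase gene, lies 41659 bases away (chromosome Z, 83455399 to 83481856). TRIM36 differed in the other direction: it was at 13.8, 14.96, 28.7, 7.95, 16.3 and 35.3 CPM in Cornish and at 53.2, 59.1, 42.3, 130.2, 65.2 and 77.4 CPM in White Plymouth Rock. No Cornish library reached the lowest White Plymouth Rock library, and at -1.87 ± 0.43 (adjusted p = 0.131) TRIM36 had the largest estimate of the 24 genes. The other higher genes were smaller in size. NR2C1 (an orphan nuclear receptor), FAM177A1 and USB1 (which trims U6 RNA of the spliceosome) had log2 fold changes of 0.56, 0.52 and 0.32.

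Among the lower genes, FAM181B (chromosome 1, 188891848 to 188893648) came closest to the threshold. It was at 7.75 to 13.2 CPM (median 10.7) in Cornish, against 14.9 to 36.02 CPM (median 21.8) in White Plymouth Rock, without overlap, and its log2 fold change was -1.20 ± 0.20 (adjusted p = 0.0676). TF, which encodes the iron carrier transferrin, was at 3.15 to 14.2 CPM (median 5.63) in Cornish, against 14.9 to 36.98 CPM (median 18.04) in White Plymouth Rock, also without overlap (-1.58 ± 0.34, adjusted p = 0.107). ACO1, the cytosolic aconitase that turns into an iron-regulatory RNA-binding protein when it loses its iron-sulphur cluster, was at 26.3 to 31.4 CPM (median 28.5) in Cornish, against 33.8 to 48.03 CPM (median 40.1) in White Plymouth Rock (-0.51 ± 0.11). Both iron genes were lower, while FECH, the last enzyme of haem synthesis, was at 55.2 to 115 CPM (median 66.6) in Cornish, against 23.2 to 62.8 CPM (median 49.9) in White Plymouth Rock (0.77 ± 0.23, adjusted p = 0.339). The 18 iron and haem genes tested had 8 positive and 10 negative estimates.

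UNC45B, the chaperone that folds the myosin head in striated muscle, was at 109 to 174 CPM (median 152) in Cornish, against 176 to 290.2 CPM (median 237) in White Plymouth Rock. Its highest Cornish library was just below its lowest White Plymouth Rock library, and the log2 fold change was -0.66 ± 0.13 (adjusted p = 0.107). DAPK3, a kinase that phosphorylates myosin light chain, was at 64.9 to 85.7 CPM (median 77.8) in Cornish, against 87.9 to 124 CPM (median 108) in White Plymouth Rock (-0.48 ± 0.11). NRSN1, a membrane protein gene of neurons, was at 8.01, 6.47, 4.86, 7.801, 9.48 and 8.304 CPM in Cornish and at 37.98, 24.3, 9.299, 30.9, 5.68 and 25.6 CPM in White Plymouth Rock. White Plymouth Rock libraries 3 and 5 lay within the Cornish range and the rest of that breed well above it (-1.57 ± 0.34). TNFRSF11B, the decoy receptor osteoprotegerin, was at 4.08 to 7.38 CPM (median 6.41) in Cornish, against 7.25 to 15.2 CPM (median 10.96) in White Plymouth Rock (-0.85 ± 0.19). GCC1, a golgin, and FCRL4, an Fc receptor-like gene, had log2 fold changes of -0.66 and -0.72 and no overlap. NR4A1, an orphan nuclear receptor that responds within minutes to stimulation, was at 66.6 to 145 CPM (median 94.4) in Cornish, against 116 to 363 CPM (median 196) in White Plymouth Rock (-1.11 ± 0.26). Its 2 highest values were in White Plymouth Rock libraries 1 and 6, and without the 3 libraries of low correlation its estimate was -0.66.

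**Figure D1:**
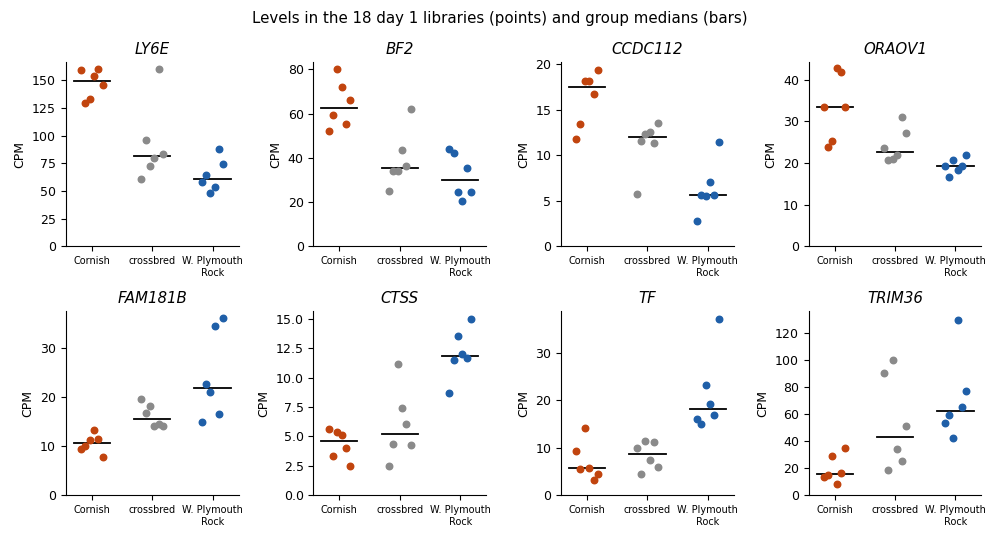
Level in CPM (y axis, from 0) of 8 genes in the 18 libraries of day 1, grouped by breed (x axis). Points are libraries and bars are medians of 6. LY6E, BF2, CCDC112 and ORAOV1 were higher in Cornish than in White Plymouth Rock, and FAM181B, CTSS, TF and TRIM36 lower, with the breeds not overlapping in any of the 8.

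The crossbred libraries of the same day gave a further set of levels for these genes. LY6E was at 61.2, 95.8, 72.4, 80.1, 160.4 and 83.1 CPM in the 6 crossbred libraries, so that 4 of them were within the White Plymouth Rock range, library 2 was just above it and library 5 was at the Cornish level. TRIM36 was at 18.4 to 100.2 CPM (median 42.8) and CCDC112 at 5.76 to 13.5 CPM (median 11.96). The crossbred mean lay between the parental means in 24 of the 24 genes, against 38.0% of the 11566 genes tested. The 24 were chosen for a wide gap between the parents, which leaves room for a mean in between, so this count is a description and no test.

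The other stages used separate libraries, and the same 24 genes were read in them. At E17, 21 of 24 had the sign seen at D1 and 3 were called with that sign (BF2, ORAOV1 and TNFRSF11B), where 3.72% of 11717 genes were called (1.65% higher and 2.07% lower in Cornish). At D21, 22 of 24 had the same sign and 4 were called (CCDC112, FAM177A1, LY6E and ORAOV1), where 2.93% of 11513 genes were called (1.53% higher and 1.4% lower). At D42, 19 had the same sign and 0 were called, where 4 genes of 11532 (0.0347%) were called, 0.0173% in each direction. An unadjusted p under 0.05 with the D1 sign was found for 11 of the 24 at E17, 11 at D21 and 5 at D42. Over all genes that share was 12.7% at E17, 11.3% at D21 and 5.88% at D42. No gene of the 24 was called in the opposite direction at these stages. Over all genes the share with the sign of D1 was 55.1% at E17, 55.8% at D21 and 55.6% at D42. The sign was kept at all 4 stages in 15 of the 24 genes (62.5%) and in 23.1% of 11212 genes tested throughout.

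ORAOV1 was the steadiest of these. It was at 24.2 to 38.3 CPM (median 34.8) in Cornish, against 19.9 to 22.4 CPM (median 22.01) in White Plymouth Rock at E17 and at 20.3 to 31.2 CPM (median 24.5) in Cornish, against 9.99 to 14.2 CPM (median 13.1) in White Plymouth Rock at D21, and the breeds did not overlap at either stage. The ORAOV1 difference passed the threshold at E17 (log2 fold change 0.61, adjusted p = 0.000746) and at D21 (1.02, adjusted p = 0.00173). At D42 it was 0.87 and did not pass (adjusted p = 0.263). NLRC5 had a negative estimate at every stage as well, with -0.51 at E17 (adjusted p = 0.0165), -0.64 at D21 (adjusted p = 0.00683) and -0.56 at D42 (adjusted p = 0.307). LY6E did not keep one sign. It was at 184 to 453 CPM (median 270.2) in Cornish, against 85.7 to 177 CPM (median 147) in White Plymouth Rock at D21 (1.07, adjusted p = 0.0366). At D42 LY6E was at 232 to 1443 CPM (median 341) in Cornish, against 558 to 1592 CPM (median 734) in White Plymouth Rock (-0.69, adjusted p = 0.821). The change in the LY6E difference between D1 and D42 did not pass its own test (adjusted p = 0.158). CTSS and TF passed the threshold at none of the other stages. CTSS was 0.089, 0.15 and -0.08 at E17, D21 and D42, and TF -0.25, -0.17 and 0.69. In the fit of all 72 libraries, neither gene was called for a change of its difference between D1 and another stage. With only the 24 purebred libraries of both stages fitted, CTSS was called against E17 and against D21. With a replicate block TF was called against D42.

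**Figure D2:**
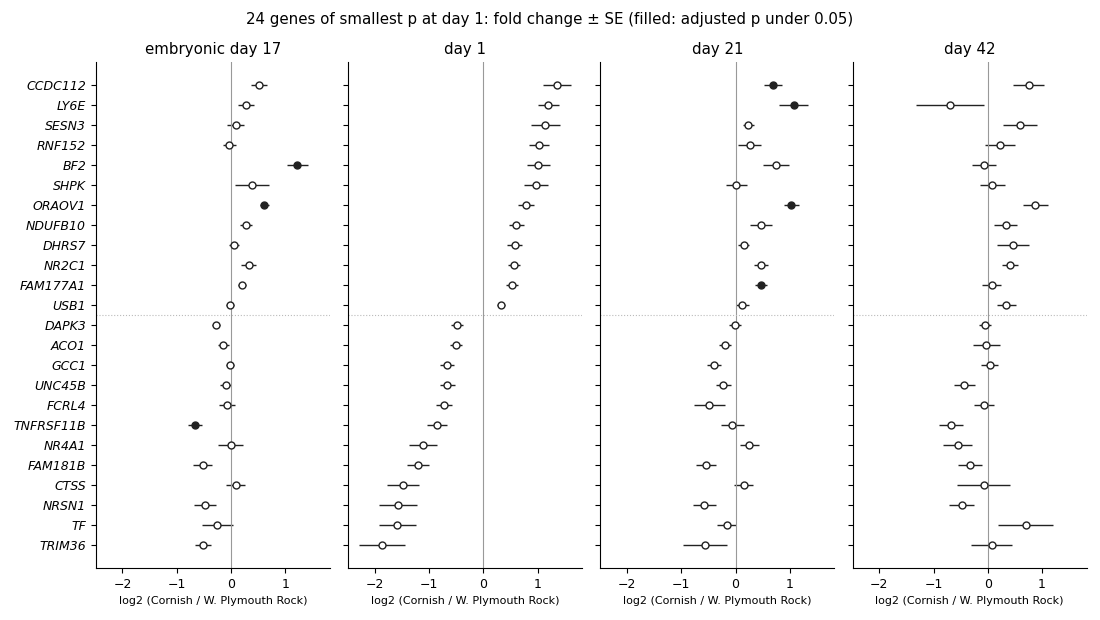
Log2 fold change of Cornish over White Plymouth Rock (x axis, point ± SE) for the 24 genes of smallest p at day 1 (rows), in the libraries of each of the 4 stages. Filled points passed an adjusted p of 0.05 in edgeR: 3 genes at embryonic day 17, 0 at day 1, 4 at day 21 and 0 at day 42.

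The spread between libraries, pooled over the 3 breed groups of a stage, was wider at D1 than at E17 and D21. At D1 the pool includes crossbred library 1, the shallowest of that day at 16673085 counts. The median SE of the log2 fold change over all genes was 0.105 at E17, 0.184 at D1, 0.140 at D21 and 0.207 at D42. The biological coefficient of variation, edgeR's estimate of the relative spread between libraries of a group, was 0.213 at E17, 0.327 at D1, 0.242 at D21 and 0.348 at D42. The median size of the estimated difference was 0.120 at E17, 0.153 at D1, 0.155 at D21 and 0.166 at D42. The number of genes called was 436 at E17, 0 at D1, 337 at D21 and 4 at D42.

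Most genes of mitochondrial energy production had a slightly higher estimate in Cornish, and none passed the adjusted threshold in edgeR. Of 52 tested genes of oxidative phosphorylation, 48 had a positive estimate (median log2 fold change 0.22), against 46.7% of all genes and an overall median of -0.018. Unadjusted p was under 0.05 for 9, all higher in Cornish (3.87% of all genes were), and 1 gene, NDUFB10, was called by DESeq2. NDUFB10, a subunit of respiratory complex I, was at 206 to 279.9 CPM (median 227) in Cornish, against 128 to 199 CPM (median 147) in White Plymouth Rock. Its groups did not overlap and its log2 fold change was 0.61 ± 0.13 (adjusted p = 0.111). Next by p came the complex I subunit genes NDUFB6 at 0.47 ± 0.15 and NDUFA5 at 0.47 ± 0.18, which overlapped between breeds. The summed level of the list was 8442 to 13081 CPM (median 9774) in Cornish and 6380.1 to 10107 CPM (median 9215) in White Plymouth Rock, and the ranges overlapped. The list's median was 0.035 at E17, 0.17 at D21 and 0.14 at D42.

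The mitochondrial ribosome, which makes the respiratory subunits encoded in mitochondrial DNA, had 53 positive and 12 negative estimates of 65 (median 0.14). Of these, 6 had an unadjusted p under 0.05, all higher (3.87% of all genes were). MRPL39 was at 21.03 to 33.2 CPM (median 26.4) in Cornish, against 14.6 to 23.4 CPM (median 16.7) in White Plymouth Rock (0.54 ± 0.15) and MRPS15 had an estimate of 0.32 ± 0.11. Of 19 citric acid cycle genes 17 were positive (median 0.19). Of 26 fatty acid oxidation genes 17 were positive (median 0.11) and 4 had an unadjusted p under 0.05, all higher (3.87% of all genes were). Those with the smallest p were ACAA2, the mitochondrial thiolase, at 489.6 to 806 CPM (median 629.6) in Cornish, against 248 to 592 CPM (median 466) in White Plymouth Rock (0.52 ± 0.18), and DECR1, which prepares unsaturated fatty acids for oxidation, at 271 to 461 CPM (median 388) in Cornish, against 111 to 301 CPM (median 255) in White Plymouth Rock (0.68 ± 0.25). Glycolysis and glycogen genes did not lean one way: 11 of 26 were positive (median -0.072). ALDOC, an aldolase, was at 84.7 to 153 CPM (median 141) in Cornish, against 54.1 to 102 CPM (median 66.6) in White Plymouth Rock (0.82 ± 0.24), and PFKM, the muscle phosphofructokinase, at 1443 to 2779.6 CPM (median 1859) in Cornish, against 1319 to 7032 CPM (median 2829) in White Plymouth Rock (-0.64 ± 0.30). The PFKM estimate was -0.25 without White Plymouth Rock library 1 and -0.29 without the 3 libraries of low correlation. Cytosolic ribosomal protein genes had 51 positive estimates of 62, of small size (median 0.095, from 0.048 without Cornish library 6 to 0.13 without Cornish library 2 when 1 library was left out, and 0.15 without the 3). Members of these lists share libraries and are not independent of each other. Leaving out 1 library at a time, the median ran from 0.14 (without Cornish library 2) to 0.26 (without White Plymouth Rock library 6) for oxidative phosphorylation, from 0.099 (without White Plymouth Rock library 1) to 0.28 (without Cornish library 1) for the citric acid cycle and from 0.034 (without Cornish library 2) to 0.15 (without Cornish library 1) for fatty acid oxidation.

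On the lists of fast and of slow or cardiac contractile genes, no gene reached an unadjusted p under 0.05. Fast contractile genes were positive in 11 of 14 (median 0.20), but their median was 0.082 without White Plymouth Rock library 1 and 0.050 without the 3 libraries of low correlation. Slow and cardiac forms were positive in 12 of 20 (median 0.27), a median that ran from -0.34 (without Cornish library 4) to 0.47 (without Cornish library 1) when 1 library was left out. Their summed level was 2866 to 13929.8 CPM (median 4074) in Cornish and 3503 to 10385 CPM (median 6407) in White Plymouth Rock. The slow and cardiac sums therefore spread more within each breed than between the medians. TTN, the giant spring protein of the sarcomere, was at 8330.05 to 13814 CPM (median 9698) in Cornish, against 7510.1 to 9019 CPM (median 7936) in White Plymouth Rock (0.34 ± 0.16, unadjusted p = 0.0445). RYR3, a calcium release channel that bird muscle uses beside RYR1, was at 626 to 743 CPM (median 677) in Cornish, against 250.2 to 496 CPM (median 465) in White Plymouth Rock. All 6 Cornish libraries had more RYR3 than any White Plymouth Rock library (0.67 ± 0.27, adjusted p = 0.513). RYR3 was called at D21 (0.59, adjusted p = 0.0224). Of 30 tested calcium handling genes 18 were positive at D1 (median 0.059). Unadjusted p was under 0.05 for 3 higher and 2 lower, where 3.87% of all genes were higher and 4.79% lower at that limit. The calcium handling gene of smallest p, CAMK2A, was lower in Cornish. CAMK2A was at 56.4 to 103 CPM in Cornish, against 79.6 to 161 CPM in White Plymouth Rock.

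Myostatin and the insulin-like growth factors showed no difference that passed a test. MSTN, the brake on muscle growth, was at 5.37 to 15.8 CPM (median 9.72) in Cornish, against 3.88 to 12.2 CPM (median 7.08) in White Plymouth Rock. Its log2 fold change of 0.40 ± 0.40 had a 95% interval of -0.44 to 1.23. IGF1 was at 0.288 to 1.85 CPM (median 1.19) in Cornish, against 0 to 2.21 CPM (median 1.27) in White Plymouth Rock. It was low and varied widely between libraries of a breed, with 0 in White Plymouth Rock library 1. IGF2 was at 12.9 to 25.5 CPM (median 18.9) in Cornish, against 9.82 to 23.8 CPM (median 21.4) in White Plymouth Rock (95% interval -0.47 to 0.38 on the log2 scale). Of 36 genes of this axis 18 were positive and 18 negative. IGFBP3, a carrier of these growth factors, was at 81.3 to 125 CPM (median 113) in Cornish, against 62.04 to 93.03 CPM (median 67.8) in White Plymouth Rock (0.55 ± 0.17, adjusted p = 0.361), and the related IGFBP7 at 194 to 312 CPM (median 249) in Cornish, against 129.5 to 221 CPM (median 188) in White Plymouth Rock (0.46 ± 0.15).

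Satellite cell and myogenic regulator genes overlapped between the breeds. PAX7, which marks satellite cells, was at 33.1 to 45.4 CPM (median 40.2) in Cornish, against 22.4 to 54.4 CPM (median 38.9) in White Plymouth Rock (95% interval -0.25 to 0.44). MYOD1, which commits them to the muscle fate, was at 285 to 462 CPM (median 388) in Cornish, against 281 to 495 CPM (median 405) in White Plymouth Rock (95% interval -0.44 to 0.43). MYOG, which drives their fusion, was at 4.21 to 13.3 CPM (median 8.57) in Cornish, against 2.15 to 30.2 CPM (median 6.83) in White Plymouth Rock, and the highest value belonged to White Plymouth Rock library 3 alone. CDH15, the cadherin of satellite cells and myoblasts, was at 180.3 to 308 CPM (median 289.7) in Cornish, against 179.6 to 467 CPM (median 428) in White Plymouth Rock (-0.55 ± 0.23, unadjusted p = 0.0255), and MEF2D, a myogenic transcription factor, at 104 to 162 CPM (median 136) in Cornish, against 147 to 315 CPM (median 180.4) in White Plymouth Rock (-0.64 ± 0.20). Without the 3 libraries MEF2D was -0.37. Cell cycle genes had 43 negative estimates of 52 (median -0.34), with 1 higher and 1 lower at an unadjusted p under 0.05 (3.87% and 4.79% of all genes were). TPX2, which builds the mitotic spindle, was the lower one, at 25.7 to 50.4 CPM (median 36.1) in Cornish, against 25.4 to 67.3 CPM (median 57.02) in White Plymouth Rock (-0.53 ± 0.22). The summed cell cycle level was 513 to 1438 CPM (median 915) in Cornish and 494 to 1865 CPM (median 1245) in White Plymouth Rock, and its lowest libraries were Cornish 2 and White Plymouth Rock 6. Without the 3 libraries of low correlation the cell cycle median was -0.71, and leaving out 1 library gave -0.56 (without White Plymouth Rock library 6) to -0.12 (without White Plymouth Rock library 3). At the other stages the cell cycle median was 0.15 at E17, 0.39 at D21 and 0.15 at D42.

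Leukocyte, fibroblast and endothelial markers each had estimates mostly to one side. So did fat cell markers, and the red blood cell and skin lists given under other observations. Leukocyte markers had 28 negative estimates of 31 (median -0.45), with 8 at an unadjusted p under 0.05, all lower in Cornish. CTSS, described above, is one of them. Over all genes tested, 3.87% had such a p on the higher and 4.79% on the lower side, and 46.7% of estimates were positive. MYO1F, a myosin of white blood cells, was at 1.42 to 4.06 CPM (median 1.77) in Cornish, against 3.38 to 6.001 CPM (median 3.93) in White Plymouth Rock (-0.97 ± 0.28), and C1QC, a complement chain made by macrophages, at 1.36 to 3.67 CPM (median 2.57) in Cornish, against 2.696 to 10.3 CPM (median 4.62) in White Plymouth Rock (-1.03 ± 0.35). The summed leukocyte level was 206 to 349 CPM (median 271) in Cornish and 283 to 422 CPM (median 363) in White Plymouth Rock, with overlap, and 3 of the 33 markers measured were at 0 in at least 1 of the 12 libraries. The list's median log2 fold change was 0.046 at E17, -0.14 at D21 and 0.016 at D42. The part of leukocyte RNA in the CTSS difference was not tested. Fibroblast and matrix genes had 25 negative estimates of 30 (median -0.28). When 1 library was left out that median ran from -0.44 (without White Plymouth Rock library 1) to -0.10 (without White Plymouth Rock library 6). Their summed level was 10324 to 40741 CPM (median 22783) in Cornish. In White Plymouth Rock the sum was 16928 to 50176.5 CPM (median 23781), and the ranges overlapped. The fibroblast list's median was 0.079 at E17, 0.14 at D21 and 0.14 at D42. Among the negative genes was FN1, the matrix protein fibronectin. FN1 was at 264 to 679 CPM (median 519) in Cornish, against 527 to 1322 CPM (median 807) in White Plymouth Rock (-0.65 ± 0.26, and -0.40 without the 3 libraries). Endothelial markers leaned the other way, with 18 positive of 23 (median 0.27) and 6 at an unadjusted p under 0.05, all higher. Among the negative estimates were LYVE1 at -0.50 ± 0.50 and PROX1 at -0.051 ± 0.34. The summed endothelial level was 1563 to 2680 CPM (median 1964) in Cornish and 1405 to 2243 CPM (median 1655) in White Plymouth Rock, with overlap. The endothelial median was 0.26 at E17, -0.14 at D21 and -0.13 at D42. MMRN2, a protein of the vessel wall, was at 38.6 to 63.1 CPM (median 51.4) in Cornish, against 29.7 to 53.6 CPM (median 34.7) in White Plymouth Rock (0.45 ± 0.15), and FLT4, the receptor of lymphatic growth factors, at 49.4 to 75.3 CPM (median 62.3) in Cornish, against 36.8 to 60.2 CPM (median 46.2) in White Plymouth Rock (0.41 ± 0.16). Satellite cell markers had 5 positive estimates of 11 (median -0.13) and smooth muscle and pericyte markers 4 of 13 (median -0.11, reaching 0.021 without White Plymouth Rock library 4). Schwann cell and nerve markers were positive in 9 of 13 (median 0.24, and 0.052 without the 3 libraries) and fat cell markers in 11 of 14 (median 0.16, and 0.32 without the 3).

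**Figure D3:**
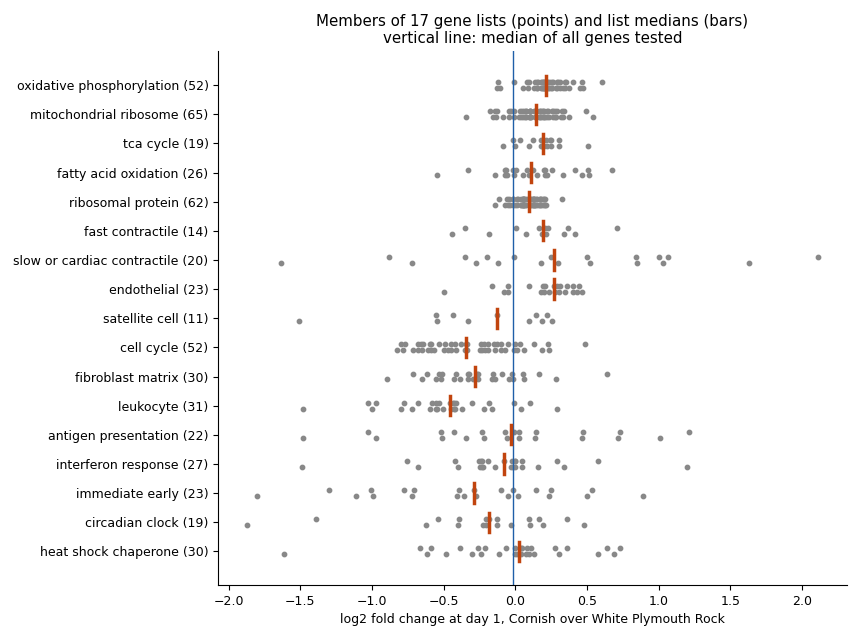
Log2 fold change at day 1, Cornish over White Plymouth Rock (x axis), of each tested member (grey points) of 17 gene lists (rows, number tested in brackets), with list medians as bars. The vertical line is the median of all genes, -0.018. Oxidative phosphorylation (median 0.22) and endothelial markers (median 0.27) lie to its right, and leukocyte markers (median -0.45) and cell cycle genes (median -0.34) to its left.

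Genes that respond within minutes to stimulation varied widely between single libraries. Immediate early genes were negative in 16 of 23 (median -0.29), with 5 at an unadjusted p under 0.05, all lower in Cornish (4.79% of all genes were). However, without the 3 libraries of low correlation the median was 0.20. Leaving out 1 library gave -0.37 (without White Plymouth Rock library 4) to 0.037 (without White Plymouth Rock library 6). GADD45B, a gene of the DNA damage and stress response, was at 33.2, 54.3, 27.8, 44.8, 43.9 and 31.4 CPM in Cornish and at 157, 38.5, 37.5, 54.2, 44.96 and 246 CPM in White Plymouth Rock. White Plymouth Rock libraries 1 and 6 alone were far above the rest, and the GADD45B estimate was -1.30 ± 0.48 with them and -0.16 without the 3. NR4A2 had an estimate of -0.99 with all libraries and 0.20 without the 3. NR4A3, an orphan nuclear receptor that muscle raises in fasting and exertion, had at most 18.9 CPM in Cornish, against 114 CPM in White Plymouth Rock library 1 and 49.6 CPM in library 6. Its estimate was -1.80 with all libraries and 1.41 without the 3. HSPH1, a heat shock chaperone, had 5.58 to 22.6 CPM in Cornish, against 213 CPM in White Plymouth Rock library 1 and at most 21.5 CPM in the other 5 of that breed. The summed level of fasting and fuel-switch genes was 3341 to 9185 CPM (median 5113) in Cornish and 2380.02 to 16306 CPM (median 6269) in White Plymouth Rock, with the highest White Plymouth Rock sum in library 6 and the second highest in library 1.

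**Figure D4:**
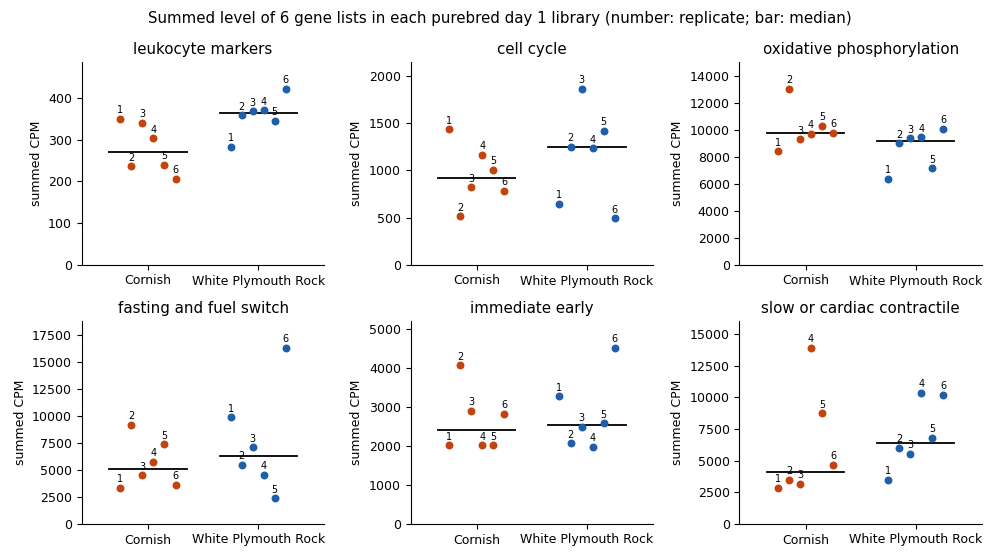
Summed CPM (y axis, from 0) of the tested members of 6 gene lists in each library, Cornish left and White Plymouth Rock right. The number beside a point is the replicate number and the bar is the median of 6. White Plymouth Rock libraries 1 and 6 stand highest of their breed for the fuel-switch and immediate early lists, and leukocyte sums overlap between breeds.

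The breed difference of the clock genes NR1D1 and NR1D2 depended on stage in the fit of all 72 libraries. With only the 24 purebred libraries of D1 and D21 fitted, the call held for NR1D2 and was lost for NR1D1. NR1D1, which encodes the clock repressor REV-ERB alpha, was at 4.51, 6.89, 12.2, 1.75, 2.64 and 3.38 CPM in Cornish and at 36.02, 39.4, 13.6, 11.8, 5.799 and 8.38 CPM in White Plymouth Rock. The groups overlapped, and the log2 fold change was -1.87 ± 0.60 (unadjusted p = 0.00581, adjusted p = 0.375). At D21 the difference was 1.24 and passed the threshold (adjusted p = 0.00942). The D1 difference minus the D21 difference was -3.11 ± 0.62 (adjusted p = 0.0118 for the interaction in the fit of all 72 libraries). Its relative NR1D2 was at 61.8 to 102 CPM (median 84.7) in Cornish, against 75.5 to 199 CPM (median 106) in White Plymouth Rock at D1 (-0.54 ± 0.21) and at 85.4 to 146 CPM (median 123) in Cornish, against 37.7 to 83.7 CPM (median 59.1) in White Plymouth Rock at D21 (1.02), and that dependence passed too (-1.56 ± 0.33, adjusted p = 0.0193). BHLHE40, a light- and hypoxia-responsive repressor of the clock, was at 48.9 to 111 CPM (median 69.7) in Cornish, against 70.5 to 349 CPM (median 145) in White Plymouth Rock at D1 (-1.39 ± 0.36, adjusted p = 0.212) and -0.62 without the 3 libraries. CRY1, a core repressor, was at 154 to 279 CPM (median 241) in Cornish, against 109 to 192 CPM (median 174) in White Plymouth Rock (0.48 ± 0.19). PER2 had an estimate of 0.36 ± 0.36 and PER3 one of -0.39 ± 0.52 at D1, and the dependence of PER3 on stage did not pass against D21 with all 72 libraries (adjusted p = 0.0768) but was called with the 24 purebred libraries alone. Of 19 clock genes 13 were negative at D1 (median -0.18), and the median was 0.0081 without the 3 libraries. The hour of sampling is not in the labels, so breed and hour cannot be told apart for these genes.

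Dependence of the breed difference on stage was tested for every gene in the fit of all 72 libraries. That fit uses 1 spread per gene for all stages, although the spread differed between stages. The interaction passed for 3 genes between D1 and E17 (0.0251% of 11932), 14 between D1 and D21 (0.117%) and 1 between D1 and D42 (0.00838%). LRCH2, a leucine-rich repeat gene, showed a breed difference far smaller at D1 than before hatch. It was at 20.3 to 29.8 CPM (median 25.3) in Cornish, against 27.02 to 41.8 CPM (median 35.8) in White Plymouth Rock at D1, and at 26.7 to 34.1 CPM (median 29.9) in Cornish, against 126 to 191 CPM (median 161) in White Plymouth Rock at E17. The D1 difference exceeded the E17 difference by 1.92 ± 0.24 on the log2 scale (adjusted p = 6.42e-07). White Plymouth Rock was a little above Cornish at D1 and several-fold above it at E17. CBLN1, a secreted synapse organiser, was at 1.09 to 11.7 CPM (median 2.86) in Cornish, against 1.76 to 5.18 CPM (median 3.16) in White Plymouth Rock at D1 and at 2.203 to 7.999 CPM (median 3.04) in Cornish, against 38.9 to 108 CPM (median 65.1) in White Plymouth Rock at E17, with an interaction of 4.36 ± 0.85 (adjusted p = 0.0186). TMEM131 was at 138 to 191 CPM (median 165) in Cornish, against 182 to 232 CPM (median 208) in White Plymouth Rock at D1 (-0.33 ± 0.095), while at E17 the estimate was 0.22 (interaction adjusted p = 0.0287). LRCH2 was also called with a replicate block and with only the 24 purebred libraries of both stages fitted; CBLN1 lost its call under the block and TMEM131 under both.

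The 14 genes called between D1 and D21 included PDE4B, a cyclic AMP phosphodiesterase, KIAA1217 and ACAD11, an acyl-CoA dehydrogenase. None of these 3 was among the 6 genes called when only the 24 purebred libraries were fitted. PDE4B was at 15.7 to 59.9 CPM (median 38.01) in Cornish, against 26.4 to 195 CPM (median 59.04) in White Plymouth Rock at D1 (-1.28 ± 0.41) and at 75.9 to 111 CPM (median 89.8) in Cornish, against 22.4 to 82.4 CPM (median 39.9) in White Plymouth Rock at D21 (1.08, adjusted p = 0.0481). Its interaction was -2.37 ± 0.47 (adjusted p = 0.0118), but the D1 estimate alone was -0.36 without the 3 libraries. KIAA1217 was -0.41 at D1 and 0.65 at D21 (interaction adjusted p = 0.0118). ACAD11 went the other way, at 0.41 at D1 and -0.66 at D21 (interaction adjusted p = 0.0434). SMPX, a small muscle protein of the costamere, was at 376 to 804 CPM (median 476) in Cornish, against 172 to 652 CPM (median 409.6) in White Plymouth Rock at D1 (0.24 ± 0.29) and differed by 1.63 at D21 (adjusted p = 0.016). The dependence of SMPX on stage did not pass against D21 (adjusted p = 0.301) or D42 (adjusted p = 0.0899). The single gene called between D1 and D42 was GYG2, a glycogenin that primes glycogen, at 0 to 0.245 CPM (median 0.0749) in Cornish, against 0.352 to 1.09 CPM (median 0.709) in White Plymouth Rock at D1. GYG2 kept this call with median-of-ratios scaling, without the filter on low counts and with a replicate block. With only the 24 purebred libraries fitted, GYG2 lost this call and 1 other gene was called. GYG2 was below the level limit and was named after its values were seen. At that level a library holds few counts and the fitted fold change depends on the prior count.

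**Figure D5:**
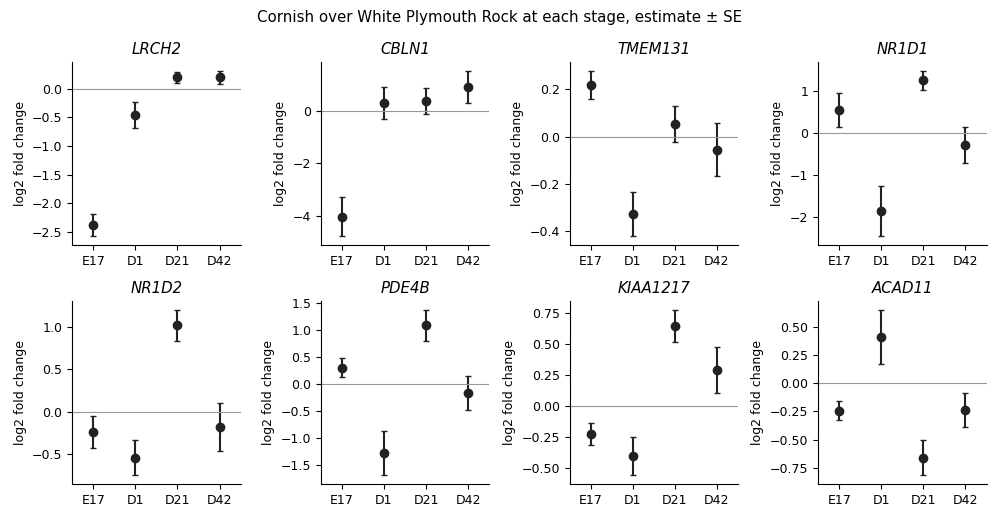
Log2 fold change of Cornish over White Plymouth Rock (y axis, estimate ± SE, scale differs by panel) at the 4 stages (x axis) for 8 genes whose breed difference at day 1 differed, in the fit of all 72 libraries, from that at embryonic day 17 (LRCH2, CBLN1, TMEM131) or day 21 (NR1D1, NR1D2, PDE4B, KIAA1217, ACAD11). NR1D1 and PDE4B were below 0 at D1 and above 0 at D21, and LRCH2 was -2.39 at E17 against -0.45 at D1.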

How the data were processed

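RNA of breast muscle was sequenced in 72 libraries; the 12 purebred D1 libraries are reported. The authors deposited one table of estimated counts, whole numbers per gene for 12046 genes, which are not normalised. Per the submitters' processing notes cutadapt 4.4, HISAT2 2.2.1, StringTie and the build GRCg7b were used. The annotation, strand setting and filters are not given in the sources. The authors also deposited a D1 table of log2 fold changes with their standard errors and p-values, described only under other observations.

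Counts were analysed with edgeR 4.0.16 in R 4.3.3 (TMM, filterByExpr, quasi-likelihood F test, Benjamini-Hochberg, threshold 0.05) on the 18 D1 libraries, with other stages fitted alike and stage interactions on all 72. The tests were tried on simulated data. Alternatives were DESeq2 1.42.0, other scaling, filters and libraries, and a replicate block. Members and gene lists were chosen with earlier results of these data known. Named genes were the 12 each way of smallest p at 5 CPM or more, up to 4 per list, 3 each way per interaction and a fixed set. Positions are RefSeq's for GRCg7b; 11671 of 12046 symbols matched. No sequence was used here.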

Additional observations from a re-analysis of the deposited data

Results flagged for a closer look

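Single libraries stood far from the others of their breed at D1 in 12 of 150 groups of 6 tested over 75 named genes. Of these, 3 were in Cornish and 9 in White Plymouth Rock. The rule is set to flag about 1 group in 20 by chance. The genes share the same 12 libraries and many were chosen by small p, so the flags cannot be read against that rate. The value is the gap to the nearest library divided by the group's range. In Cornish it was 0.727 for RNF152 in library 1, 0.629 for BHLHE40 in library 2 and 0.804 for CBLN1 in library 4. In White Plymouth Rock library 6 it was 0.668 for C1QC, 0.668 for CDH15 (low), 0.712 for NR4A2 and 0.638 for FN1. In White Plymouth Rock library 1 it was 0.925 for HSPH1, 0.728 for RYR3 (low) and 0.698 for PFKM. The MYOG value of White Plymouth Rock library 3 gave 0.708 and the MMRN2 value of library 5 gave 0.674.

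The breed difference (Cornish over White Plymouth Rock, log2) at D1 minus that at another stage passed the interaction test for 9 named genes. Against E17 it was 1.92 for LRCH2, 4.36 for CBLN1 and -0.56 for TMEM131. Against D21 it was -3.11 for NR1D1, -1.56 for NR1D2, -2.37 for PDE4B, -1.06 for KIAA1217, 1.07 for ACAD11 and -2.65 for GYG2. Against D42 it was -3.01 for GYG2.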

How the results depend on the processing

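At D1 edgeR called 0 genes; DESeq2 called 78, the fit of all 72 libraries 120, the fit of only the 12 purebred libraries 2 (LY6E and CTSS), and the fit without the shallow crossbred library 1 (LY6E). Leaving out 1 purebred library at a time gave 0 to 7 calls, and leaving out the 3 libraries of lowest correlation, chosen after seeing the data, gave 13. Median-of-ratios scaling, no filter, a mean of at least 1 CPM and counts divided by 4 each gave 0. The counts at E17, D21 and D42 were 436, 337 and 4; DESeq2 gave 868, 739 and 68, and the fit of all 72 gave 46, 217 and 168. Interactions numbered 3 against E17, 14 against D21 and 1 against D42; DESeq2 gave 5, 77 and 33, and the fit of the 24 purebred libraries gave 7 against E17 (2 of the 3 shared, LRCH2 and CBLN1), 6 against D21 (2 of the 14 shared, NR1D2 and GDAP1) and 1 against D42 (CDH4, not GYG2). The cause of these shifts was not tested.

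Same-numbered Cornish and White Plymouth Rock libraries correlated at -0.083 to 0.246 in their deviations from group means, and 1 of 6 Cornish libraries matched its own number best, so the numbers were not taken as pairs. With a replicate block D1 had 2 calls (LY6E and CCDC112), D42 0, and the interactions 1 against E17, 51 against D21 and 11 against D42. Under the block IGF1 was 0.20, MYOD1 0.0072 and MYOG 0.20, each with the sign turned.

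Leaving out 1 library turned the sign of genes with small estimates: IGF1 ran -0.36 to 0.20, IGF2 -0.18 to 0.048, PAX7 -0.016 to 0.24, MYOD1 -0.084 to 0.076, MYOG -0.40 to 0.56 and CBLN1 -0.42 to 0.53. HSPH1 was not near 0, at -1.61 ± 0.75 with all libraries. It ran -1.85 to 0.30, and its sign turned only without White Plymouth Rock library 1. Without the 3 libraries PAX7 was -0.13, NR4A2 0.20, HSPH1 0.21 and NR4A3 1.41. With 6 libraries a breed and this spread, a gene of typical spread had an SE of 0.184 on the log2 scale, and no gene passed the adjusted threshold, LY6E at 1.20 and TRIM36 at -1.87 included.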

Other observations

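Skin and epithelial genes, markers of a neighbouring tissue, were low and leaned lower in Cornish: 6 of 6 tested had a negative estimate at D1 (median -0.75), and their summed level was 13.3 to 22.04 CPM (median 15.6) in Cornish and 20.1 to 35.8 CPM (median 29.5) in White Plymouth Rock. At E17 the same list had a median of -1.06 with 2 genes called lower (2.07% of all genes were), at D21 0.058 and at D42 0.26. Cartilage and bone genes were positive in 8 of 12 (median 0.19, from -0.17 without Cornish library 3 to 0.40 without White Plymouth Rock library 4) and summed to 26.2 to 563 CPM (median 59.2) in Cornish and 31.1 to 329 CPM (median 78.6) in White Plymouth Rock, a spread between single libraries far wider than that between breeds. Red blood cell genes had 10 of 12 positive estimates at D1 (median 0.25, from 0.093 without White Plymouth Rock library 1 to 0.56 without White Plymouth Rock library 6) and summed to 952 to 1339 CPM (median 1029.6) in Cornish and 758 to 1579 CPM (median 979.8) in White Plymouth Rock. At E17, 5 of those 12 were called higher in Cornish, against 1.65% of all genes.

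Cytosolic ribosomal protein genes stood on the other side at E17, where 34 of 62 were called lower in Cornish (2.07% of all genes were) and the median was -0.32, against 0.095 at D1; the change of the list between stages was not tested. Proteasome genes had 12 positive of 35 (median -0.053), a median that was 0.037 without White Plymouth Rock library 1 and 0.075 without the 3 libraries of low correlation. Sterol synthesis genes had 8 of 20 (median -0.11, and -0.16 to -0.040 when 1 library was left out, highest without Cornish library 2; -0.18 without the 3).

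The authors' deposited table for D1 lists 1114 genes for both purebreds, with no p-value above 0.05. Its p-values are not labelled as adjusted. At an unadjusted p under 0.05 edgeR gave 1002 genes here and DESeq2 1156. All 1098 of the authors' genes that were tested here have the opposite sign to Cornish over White Plymouth Rock. The fold changes of the deposited table therefore run White Plymouth Rock over Cornish. In the authors' deposited table LY6E has a log2 fold change of -1.19 with a standard error of 0.154.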
